A study of Homo sapiens with 12 samples.

Results

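The integrin and laminin genes were examined in SZ95, an immortalised line of human sebaceous gland cells. The members were the genes whose symbol is that of an integrin alpha chain (ITGA), an integrin beta chain (ITGB) or a laminin alpha, beta or gamma chain (LAMA, LAMB, LAMC), each read by a probe set that carries 1 gene symbol. This gave 35 of the 18417 genes tested: 17 integrin alpha, 8 integrin beta, 4 laminin alpha, 4 laminin beta and 2 laminin gamma chains, each read by 1 probe set. ITGA1 and LAMA3 were not analysed here. RNA was measured on 12 Affymetrix whole-transcript arrays. Cells in Sebomed medium took up, by lipofection, siRNA that targets OLR1 or its scramble control. After 24 h they were either left untreated or given 25 µg/ml of UVPAPC, the phospholipid PAPC oxidised with ultraviolet light. The labels do not give the length of the UVPAPC exposure. The 4 groups (scramble untreated, scramble UVPAPC, OLR1 untreated and OLR1 UVPAPC) held 3 arrays each, so n = 3 throughout, and all of the cells were transfected. A vehicle, PAPC before oxidation, untransfected cells and a further OLR1 siRNA are not named in the labels, so effects of the oxidised lipid and of its vehicle, or of the loss of OLR1 and of other actions of that siRNA, cannot be told apart. Whether the replicates came from separate cultures is not stated, and if they did not, p-values cover no more than the spread between arrays, which may then be technical.

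Integrins are cell surface receptors made of an alpha and a beta chain, and the pairing decides what the receptor binds. ITGB1 joins many alpha chains into receptors for collagen, laminin or fibronectin, ITGAV joins several beta chains into receptors that recognise the RGD peptide motif, and ITGB2 and ITGB7 serve leukocytes. Laminins are trimers of an alpha, a beta and a gamma chain that form the basement membrane, on which the basal cells of the skin and of the sebaceous gland rest.

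Values are log2 signals, and a difference between groups is a log2 fold change with the standard error (SE) of a limma fit to all 12 arrays. A gene is said to rise or fall where its Benjamini-Hochberg adjusted p over all 18417 genes was under 0.05. OLR1, which encodes the scavenger receptor LOX-1, had a lower signal in every OLR1 siRNA array (4.33 to 4.66) than in every scramble array (5.35 to 6.19). Between arrays of the same group Pearson's r across genes, which are not independent replicates, was 0.996 to 0.998. Of the epithelial and sebocyte markers, 5 of 7 and 12 of 15 measured had a mean signal above the median of all genes tested. The same held for 2 of 12 leukocyte, 2 of 10 endothelial, 0 of 6 platelet, 3 of 12 fibroblast and 2 of 6 melanocyte markers. The mean log2 signal over the leukocyte markers was 5.11 to 5.26 on all arrays, and over the platelet markers 4.44 to 4.65. With OLR1 siRNA 1 of 10 endothelial markers rose (the cadherin gene CDH5, by 0.65 in untreated and 0.50 in UVPAPC cells), 1 of 12 leukocyte markers (the lysosomal gene CD68, by 0.40 and 0.44) and 1 of 6 melanocyte markers (the transcription factor gene MITF, by 0.26 and 0.43). The median of the 6 melanocyte markers was 0.016 in untreated and -0.23 in UVPAPC cells, and MITF fell by 0.23 with UVPAPC and scramble siRNA. With UVPAPC 2 of 7 basal epithelial markers fell with scramble siRNA (KRT15 by 0.46 and CDH3 by 0.26) and 1 with OLR1 siRNA (KRT15 by 0.45). Of the 12 fibroblast markers 1 rose with UVPAPC and scramble siRNA (ZEB2, by 0.43), and 0 passed with UVPAPC and OLR1 siRNA. The mean over the fibroblast markers was 5.02 to 5.06 on scramble untreated and 5.11 to 5.15 on scramble UVPAPC arrays. Of the 15 sebocyte markers 2 rose and 2 fell with UVPAPC under each siRNA. PLIN2, a lipid droplet gene, rose by 0.58 and 0.67 and the elongase gene ELOVL5 by 0.39 and 0.42, while PPARG, a regulator of lipid synthesis, fell by 0.47 and 0.35, PRDM1 by 0.40 with scramble and MUC1 by 0.34 with OLR1 siRNA. With OLR1 siRNA DGAT2 (0.30) and MGST1 (0.24) of the sebocyte list rose in UVPAPC cells and DSG3 (0.40) of the basal list in untreated cells. Their part in the results below was not tested.

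Of the 35 members 7 passed in at least 1 of the 5 comparisons: ITGB6, ITGB8, ITGA2, ITGA3, ITGA5, ITGA6 and LAMB1. They are 20% of the members, beside 21.8% of all genes that passed in at least 1 comparison, a share near the background. All 7 were among the 16 members whose mean signal lay above the median of all genes tested. The other 19 members, below that median, included all 9 chains of leukocyte receptors and of the related alpha4 and alpha9 integrins, and 0 of the 19 were called in any comparison. Of all genes below the median 9.82% were called in at least 1, and of all genes above it 33.9% were, beside 43.8% of the 16 members.

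**Figure D1:**
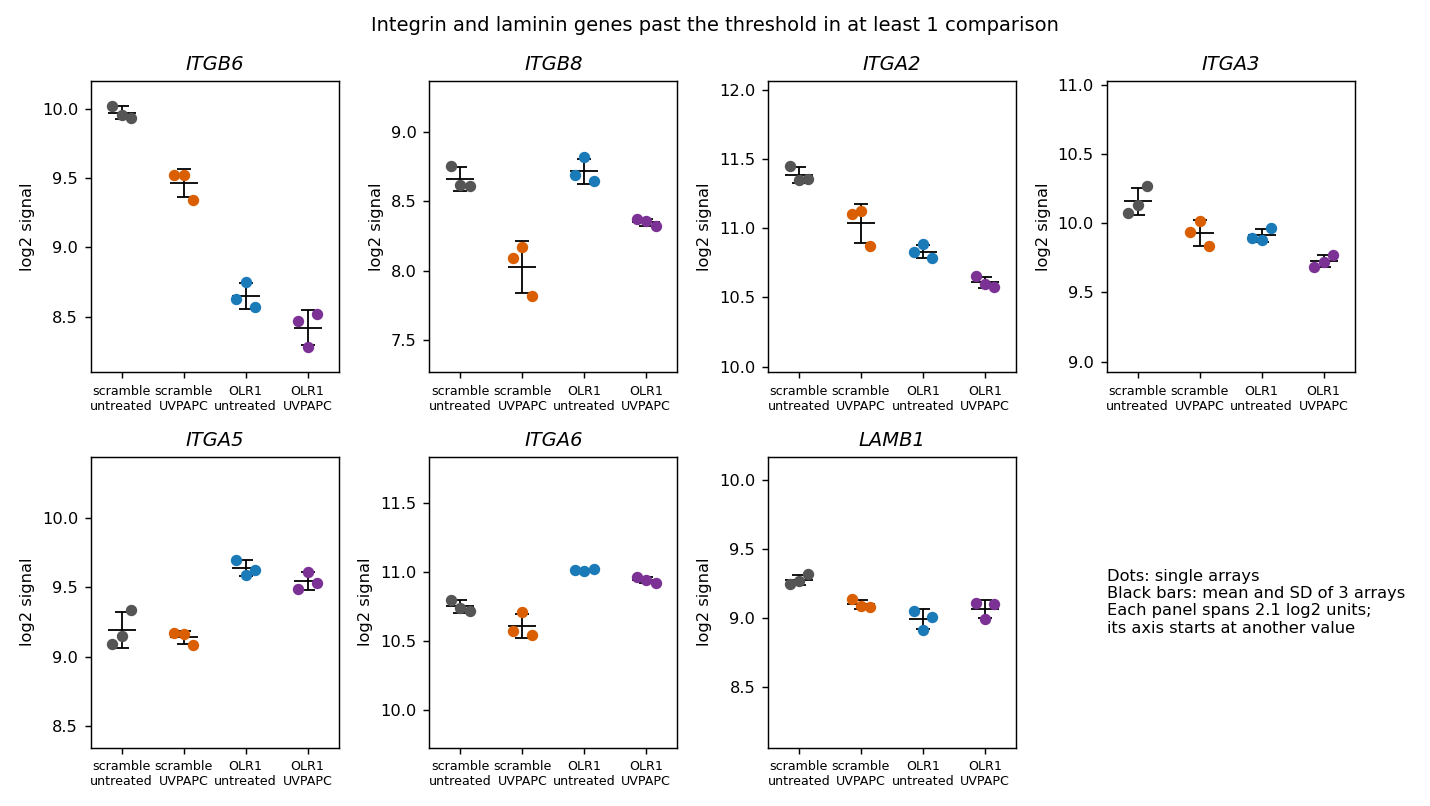
Log2 signal (y axis) of the 7 integrin and laminin genes that passed the threshold in at least 1 comparison, in the 4 groups of siRNA and treatment (x axis); dots are single arrays and black bars the mean and SD of 3 arrays. ITGB6 ran from 10.02 down to 8.28, and each of its scramble arrays lay above each of its OLR1 siRNA arrays; ITGA5 and ITGA6 were higher with OLR1 siRNA.

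With scramble siRNA, UVPAPC lowered 3 of the 35 members, the beta chains ITGB8 (log2 fold change -0.63) and ITGB6 (-0.51) and the collagen receptor chain ITGA2 (-0.35), and raised 0. The 3 members are 8.57% of the 35, beside 7.31% of all genes called in this comparison, a share near the background. This reading depends on the fit: with trend and robust eBayes 7 members (20%) and 9.20% of all genes passed. Among genes above the median signal 18.8% of members and 11.9% of all genes were called. In the falling direction 4.64% of all genes were called, and in the rising direction 2.67%. The groups did not overlap in 15 members, against 24.1% of all genes. The median over the 35 members was -0.016 and over all genes -0.0020. Below 0 lay 18 members, or 51.4%, beside 50.6% of all genes. After rescaling of the arrays (centring on their medians, repeated quantile normalization or cyclic loess) 21 to 22 members lay below 0. The direction differed with signal. Above the median signal 14 of 16 members (87.5%) lay below 0, beside 59.1% of all genes, with medians of -0.158 and -0.030. Below the median signal 4 of 19 members (21.1%) did, beside 42.1% of all genes, with medians of 0.064 and 0.021. Without the first scramble untreated array 868 in place of 1347 genes passed, and these 3 members kept their calls under each of the 21 alternatives run.

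With OLR1 siRNA, UVPAPC lowered 1 of the 35 members, ITGB8 (-0.37), and raised 0, which is 2.86% beside 6.71% of all genes (3.25% lower and 3.46% higher). Among genes above the median signal 6.25% of members and 10.8% of all genes were called. With trend and robust eBayes 5 members (14.3%) and 8.32% of all genes passed. The next members by p were the laminin gamma chain LAMC1 (-0.22, adjusted p = 0.0518), the hemidesmosome chain ITGB4 (-0.25, adjusted p = 0.0780) and ITGA2 (-0.22, adjusted p = 0.0917). The groups did not overlap in 10 members, against 23.7% of all genes, and the median was -0.072 over the members and -0.013 over all genes. Below 0 lay 24 members, or 68.6%, beside 54.5% of all genes, and 25 to 26 after rescaling. The call of ITGB8 was lost without OLR1 untreated replicate 2 (adjusted p = 0.0808) or OLR1 UVPAPC replicate 3 (adjusted p = 0.0538), which leaves 0 members. Without scramble UVPAPC replicate 3, ITGA2 and LAMC1 also passed and 3 members fell.

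In untreated cells the OLR1 siRNA moved 6 of the 35 members, 17.1% beside 9.71% of all genes. ITGB6 (-1.32), ITGA2 (-0.55), the laminin chain LAMB1 (-0.29) and the laminin receptor chain ITGA3 (-0.25) fell, and the fibronectin receptor chain ITGA5 (0.45) and the laminin receptor chain ITGA6 (0.26) rose. Of all genes 4.42% were lower and 5.29% higher. Among the genes above the median signal 37.5% of members (6 of 16) and 16.1% of all genes were called. The groups did not overlap in 11 members, against 28.7% of all genes, and the median was -0.037 over the members and -0.0014 over all genes. Below 0 lay 23 members, or 65.7%, beside 50.5% of all genes, and 18 or 19 after rescaling, which moved all genes too. With centred arrays the median was -0.00030 over the members and 0.035 over all genes. With repeated quantile normalization these were -0.0076 and 0.0090, and with cyclic loess -0.0098 and 0.0030. Of all genes 1789 passed, against 1113 without scramble untreated replicate 2, 1158 without scramble untreated replicate 3 and 1101 without OLR1 untreated replicate 2. Without OLR1 untreated replicate 2 the falling members numbered 2, ITGB6 and ITGA2, and without scramble untreated replicate 2 or 3 the rising members numbered 1, ITGA5.

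In UVPAPC cells the OLR1 siRNA moved 5 of the 35 members, 14.3% beside 12.5% of all genes, a share near the background. Among genes above the median signal 31.2% of members and 20.2% of all genes were called. ITGB6 (-1.04) and ITGA2 (-0.43) fell, and ITGA5 (0.40), ITGA6 (0.33) and ITGB8 (0.32) rose. Of all genes 4.56% were lower and 7.94% higher. The groups did not overlap in 13 members, against 30.8% of all genes. The median was -0.098 over the members and -0.012 over all genes. Below 0 lay 29 members, or 82.9%, beside 53.1% of all genes, and 25 to 26 after rescaling. Before rescaling these were 11 of 16 members (68.8%) above the median signal, beside 39.5% of all genes. Below the median signal they were 18 of 19 members (94.7%), beside 66.8% of all genes. Of all genes 2302 passed, against 1372 without scramble UVPAPC replicate 3 and 1267 without OLR1 UVPAPC replicate 1. The falling members numbered 4 without OLR1 UVPAPC replicate 2, where ITGA11 (-0.34) and LAMC3 (-0.31) also passed.

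**Figure D2:**
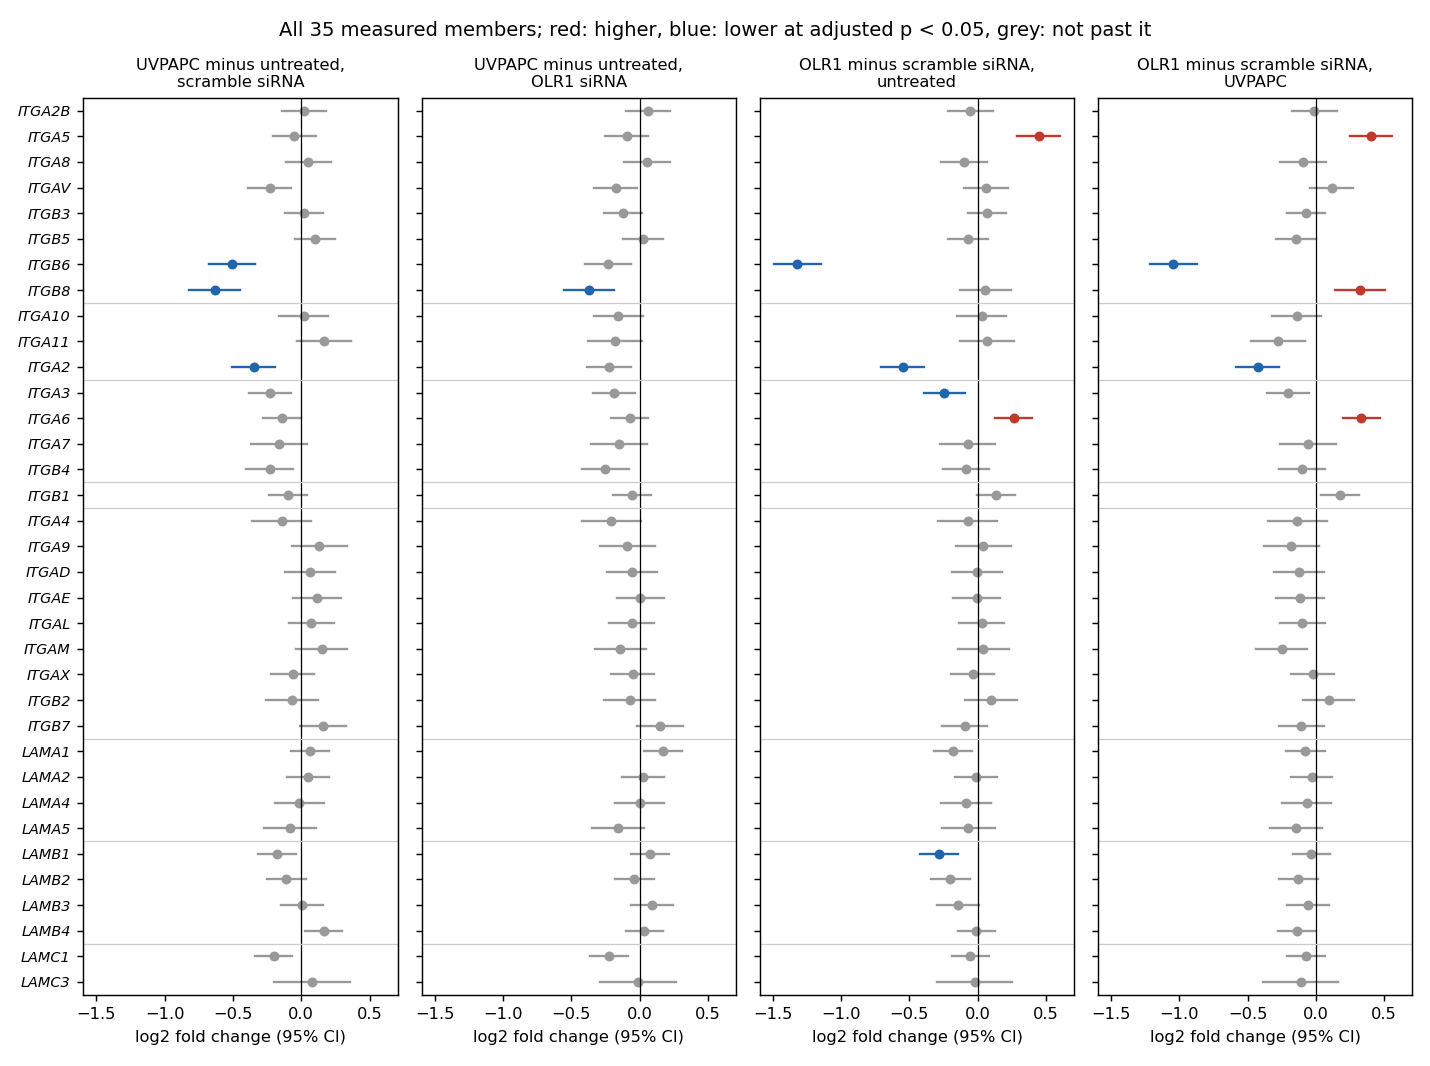
Log2 fold change with its 95% confidence interval (x axis) of all 35 members (y axis, grouped from top to bottom as RGD receptor chains, collagen receptor alpha chains, laminin receptor chains, ITGB1, leukocyte and related chains, and laminin alpha, beta and gamma chains) in 4 comparisons. Red and blue points rose and fell, and grey points did not pass; the point of ITGB6 at -1.32 stands farthest from 0, and no leukocyte chain and no laminin alpha or gamma chain passed.

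The promoter sequences of 4 of the members that moved are shown to set the base composition of ITGB6 and ITGB8, which share the partner ITGAV, beside that of ITGA2 and ITGA5, which share the partner ITGB1. They are the 250 bases before the RefSeq start of each gene in build GRCh38.p14, read 5′ to 3′ on the strand of the gene. Capitals mark matches to GC boxes (GGGCGG) and TEAD motifs (GGAATG) on either strand.
ITGB6, chr2:160200273-160200522, minus strand: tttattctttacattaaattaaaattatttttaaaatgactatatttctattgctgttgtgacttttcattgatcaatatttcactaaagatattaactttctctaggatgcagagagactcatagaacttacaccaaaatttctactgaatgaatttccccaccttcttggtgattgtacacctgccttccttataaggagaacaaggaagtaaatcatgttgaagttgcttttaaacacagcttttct
ITGB8, chr7:20330650-20330899, plus strand: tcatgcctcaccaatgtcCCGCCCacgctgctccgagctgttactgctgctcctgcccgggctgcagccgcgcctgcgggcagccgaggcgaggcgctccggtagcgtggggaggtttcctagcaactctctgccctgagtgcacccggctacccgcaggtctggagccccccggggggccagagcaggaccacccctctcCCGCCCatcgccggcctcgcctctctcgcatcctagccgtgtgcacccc
ITGA2, chr5:52989102-52989351, plus strand: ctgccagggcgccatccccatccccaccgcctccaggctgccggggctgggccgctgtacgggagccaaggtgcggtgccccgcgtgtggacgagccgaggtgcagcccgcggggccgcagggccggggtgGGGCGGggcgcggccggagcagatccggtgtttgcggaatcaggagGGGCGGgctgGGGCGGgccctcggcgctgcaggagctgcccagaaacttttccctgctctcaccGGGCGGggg
ITGA5, chr12:54419267-54419516, minus strand: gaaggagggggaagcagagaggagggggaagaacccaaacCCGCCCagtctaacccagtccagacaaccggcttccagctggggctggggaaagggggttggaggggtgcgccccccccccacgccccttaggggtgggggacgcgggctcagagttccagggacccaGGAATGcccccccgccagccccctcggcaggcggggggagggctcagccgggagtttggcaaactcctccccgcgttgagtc

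The ITGB6 window held 30% G and C bases, lower than all but 1.52% of 35116 RefSeq windows of this length. ITGA2, which fell with ITGB6 under OLR1 siRNA, held 76.4%, and 91.9% of windows held less. ITGB8 held 71.2% and ITGA5 70%, and the median was 60% over the 31 windows of the 24 members with an entry and 58% over all windows. GC boxes numbered 4 in ITGA2, 2 in ITGB8, 1 in ITGA5 and 0 in ITGB6, and 42.6% of all windows held at least 1. The TEAD motif was found in ITGA5, 82 bases before its start, and in 11.9% of all windows. The windows were also searched on both strands for AP-1 (TGANTCA, 6.57% of all windows), the antioxidant response element (TGACNNNGC, 10.9%), the heat shock element (GAANNTTC, 5.78%) and the TATA box (TATAAA, 10.7%), and these 4 windows held none of those letters. No marked match overlapped another. ITGA6 has 2 RefSeq starts, the windows of which held 50.8% G and C with a TATA box and 71.6% with 3 GC boxes. A match is a description of the letters, and which start these cells use was not analysed here.

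ITGB6 pairs with ITGAV into an epithelial receptor that binds the latent form of TGF-beta and activates it. The scramble arrays read 10.02, 9.96 and 9.93 (log2 signal) untreated and 9.52, 9.53 and 9.34 after UVPAPC. The OLR1 siRNA arrays read 8.63, 8.75 and 8.57 untreated and 8.47, 8.28 and 8.52 after UVPAPC. The 4 groups did not overlap, and the signal was highest in scramble untreated and lowest in OLR1 UVPAPC cells. With OLR1 siRNA ITGB6 fell 2.50-fold in untreated cells (-1.32, SE 0.080, 95% CI -1.49 to -1.15, adjusted p = 8.13e-08) and 2.06-fold in UVPAPC cells (-1.04, SE 0.080, 95% CI -1.21 to -0.87, adjusted p = 1.9e-06). UVPAPC lowered it 1.42-fold with scramble siRNA (-0.51, SE 0.080, adjusted p = 0.000806). With OLR1 siRNA its difference was -0.23 (SE 0.080, adjusted p = 0.112). The difference between these responses was 0.28 (95% CI 0.035 to 0.52), with an adjusted p = 0.904, so it did not pass.

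ITGB8, another partner of ITGAV known to activate latent TGF-beta, had a different pattern. Its log2 signal was 8.76, 8.62 and 8.61 in scramble untreated and 8.69, 8.82 and 8.65 in OLR1 untreated cells, which overlapped. After UVPAPC the scramble arrays read 8.09, 8.17 and 7.82 and the OLR1 siRNA arrays 8.37, 8.36 and 8.32. All UVPAPC arrays therefore lay under all untreated arrays, and those with scramble siRNA were the lowest. UVPAPC lowered ITGB8 1.55-fold with scramble siRNA (-0.63, SE 0.087, 95% CI -0.82 to -0.45, adjusted p = 0.000222) and 1.29-fold with OLR1 siRNA (-0.37, SE 0.087, 95% CI -0.55 to -0.18, adjusted p = 0.0153). In UVPAPC cells ITGB8 was 1.25-fold higher with OLR1 siRNA (0.32, SE 0.087, adjusted p = 0.0238), and in untreated cells its difference was 0.057 (SE 0.087, adjusted p = 0.765). The rise in UVPAPC cells was 0.22 without scramble UVPAPC replicate 3 (adjusted p = 0.103), and also missed the threshold without OLR1 UVPAPC replicate 1 (adjusted p = 0.0770), without OLR1 UVPAPC replicate 3 (adjusted p = 0.0513) and with the 6 arrays compared alone (adjusted p = 0.0539). The difference between the 2 UVPAPC responses was 0.27 (95% CI 0.0044 to 0.53), with an adjusted p = 0.904.

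ITGAV, the alpha chain that both of these beta chains need, did not pass in any comparison. Its log2 signal was 10.20, 10.05 and 10.10 in scramble untreated, 9.96, 9.94 and 9.76 in scramble UVPAPC, 10.19, 10.25 and 10.09 in OLR1 untreated and 10.05, 9.96 and 9.998 in OLR1 UVPAPC cells. The UVPAPC arrays lay under the untreated arrays with each siRNA, by -0.23 (SE 0.074, adjusted p = 0.0781) and -0.17 (SE 0.074, adjusted p = 0.216). With OLR1 siRNA the values were 0.060 in untreated and 0.12 in UVPAPC cells. ITGB5, another ITGAV partner and a vitronectin receptor chain, ranged from -0.15 to 0.10 over the 4 comparisons, and ITGB3, the partner of ITGAV and of the platelet chain ITGA2B, from -0.12 to 0.067. ITGA2B itself ranged from -0.056 to 0.062 and ITGA8, an RGD receptor alpha chain, from -0.10 to 0.056.

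ITGA5 pairs with ITGB1 into the main fibronectin receptor, and it moved against ITGB6 and ITGA2. Its log2 signal was 9.09, 9.15 and 9.34 in scramble untreated and 9.17, 9.16 and 9.09 in scramble UVPAPC cells. With OLR1 siRNA it was 9.698, 9.59 and 9.63 in untreated and 9.48, 9.61 and 9.53 in UVPAPC cells. All 6 OLR1 siRNA arrays lay above all 6 scramble arrays, and the treatments overlapped. ITGA5 rose 1.36-fold in untreated cells (0.45, SE 0.074, 95% CI 0.29 to 0.60, adjusted p = 0.00105) and 1.32-fold in UVPAPC cells (0.40, SE 0.074, 95% CI 0.25 to 0.56, adjusted p = 0.00242). UVPAPC gave -0.051 with scramble and -0.093 with OLR1 siRNA. Its partner ITGB1 had values of 0.13 (SE 0.066, adjusted p = 0.253) and 0.18 (SE 0.066, adjusted p = 0.0931) with OLR1 siRNA, without overlap of the groups, and -0.10 and -0.056 with UVPAPC.

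Among the collagen receptor chains, ITGA2 fell and ITGA10 and ITGA11 did not pass. ITGA2 pairs with ITGB1, and its log2 signal was 11.45, 11.34 and 11.35 in scramble untreated and 11.11, 11.13 and 10.87 in scramble UVPAPC cells. With OLR1 siRNA it was 10.83, 10.88 and 10.79 in untreated and 10.65, 10.60 and 10.58 in UVPAPC cells. The scramble untreated arrays were the highest and the OLR1 UVPAPC arrays the lowest, with no overlap in any of the 4 comparisons. With OLR1 siRNA ITGA2 fell 1.46-fold in untreated cells (-0.55, SE 0.074, 95% CI -0.71 to -0.39, adjusted p = 0.000173) and 1.34-fold in UVPAPC cells (-0.43, SE 0.074, 95% CI -0.58 to -0.27, adjusted p = 0.00173). UVPAPC lowered it 1.27-fold with scramble siRNA (-0.35, SE 0.074, adjusted p = 0.00794), and with OLR1 siRNA its difference was -0.22 (SE 0.074, adjusted p = 0.0917). ITGA10 ranged from -0.15 to 0.030 over the 4 comparisons and ITGA11 from -0.28 to 0.17.

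The laminin receptor chains went apart with OLR1 siRNA. ITGA6 pairs with ITGB1, or with ITGB4 in the hemidesmosome, the junction that anchors basal cells to the basement membrane. Its log2 signal was 10.80, 10.74 and 10.71 in scramble untreated and 11.01, 11.01 and 11.02 in OLR1 untreated cells. After UVPAPC the scramble arrays read 10.58, 10.71 and 10.54 and the OLR1 siRNA arrays 10.96, 10.94 and 10.92. All OLR1 siRNA arrays lay above all scramble arrays. ITGA6 rose 1.20-fold in untreated cells (0.26, SE 0.064, adjusted p = 0.0153) and 1.26-fold in UVPAPC cells (0.33, SE 0.064, adjusted p = 0.00341). In untreated cells the call was lost without scramble untreated replicate 2 (adjusted p = 0.0591) or replicate 3 (adjusted p = 0.0624).

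ITGA3, the alpha chain of another epithelial laminin receptor with ITGB1, went the other way. The arrays read 10.08, 10.13 and 10.27 in scramble untreated, 9.93, 10.02 and 9.84 in scramble UVPAPC, 9.89, 9.88 and 9.96 in OLR1 untreated and 9.69, 9.72 and 9.77 in OLR1 UVPAPC cells. The scramble untreated arrays were the highest, the OLR1 UVPAPC arrays the lowest, and the other 2 groups overlapped. ITGA3 fell with OLR1 siRNA in untreated cells (-0.25, SE 0.071, adjusted p = 0.0394). That call sits near the threshold: it was lost under 9 of 21 alternatives, 6 of them leaving out 1 array, with an adjusted p up to 0.164 without scramble untreated replicate 3. Its other differences were -0.20 (SE 0.071, adjusted p = 0.0732) with OLR1 siRNA in UVPAPC cells, and -0.23 (adjusted p = 0.0660) and -0.19 (adjusted p = 0.151) with UVPAPC. With trend and robust eBayes the -0.20 (adjusted p = 0.0223) and the -0.23 (adjusted p = 0.0147) passed, and the -0.19 did not.

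ITGB4, the beta chain of the hemidesmosome, did not pass. The arrays read 9.71, 9.85 and 10.02 in scramble untreated, 9.61, 9.69 and 9.59 in scramble UVPAPC, 9.80, 9.70 and 9.82 in OLR1 untreated and 9.44, 9.60 and 9.53 in OLR1 UVPAPC cells. The UVPAPC arrays lay under the untreated arrays with both siRNAs, by -0.23 (SE 0.080, adjusted p = 0.102) and -0.25 (SE 0.080, adjusted p = 0.0780). ITGA7, a laminin receptor chain of muscle, ranged from -0.16 to -0.058. All 4 laminin receptor chains had values below 0 in both UVPAPC responses, with medians of -0.196 and -0.167, and did so under each of the 3 rescalings of the arrays.

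The chains of leukocyte receptors and of the alpha4 and alpha9 integrins did not pass in any comparison. These were ITGA4, ITGA9, ITGAE, the ITGB2 partners ITGAD, ITGAL, ITGAM and ITGAX, and the beta chains ITGB2 and ITGB7. Their log2 fold changes lay between -0.25 and 0.16, the lowest being that of ITGAM with OLR1 siRNA in UVPAPC cells (-0.25, SE 0.088, adjusted p = 0.0759). Their mean log2 signals were 4.49 to 6.33, all below the median of the genes tested, and the mean over the leukocyte markers overlapped between the groups.

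Of the 10 laminin chains, LAMB1 alone passed, in 1 comparison. LAMB1 is the beta chain of the laminins found in most basement membranes. Its log2 signal was 9.25, 9.27 and 9.32 in scramble untreated, 9.14, 9.08 and 9.08 in scramble UVPAPC, 9.05, 8.91 and 9.01 in OLR1 untreated and 9.11, 8.99 and 9.10 in OLR1 UVPAPC cells. The scramble untreated arrays stood above the arrays of the other 3 groups. With OLR1 siRNA LAMB1 fell 1.22-fold in untreated cells (-0.29, SE 0.065, 95% CI -0.42 to -0.15, adjusted p = 0.0101), and its difference in UVPAPC cells was -0.033 (SE 0.065, adjusted p = 0.783). The call was lost without OLR1 untreated replicate 2 (-0.25, adjusted p = 0.0606). The difference between its UVPAPC responses was 0.25 (95% CI 0.057 to 0.45), with an unadjusted p = 0.0146 and an adjusted p = 0.904.

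LAMB3 is a laminin beta chain of epithelial basement membranes. The arrays read 11.52, 11.59 and 11.56 in scramble untreated, 11.64, 11.63 and 11.41 in scramble UVPAPC, 11.44, 11.34 and 11.46 in OLR1 untreated and 11.53, 11.53 and 11.45 in OLR1 UVPAPC cells. Its differences were 0.0020 and 0.089 with UVPAPC and -0.14 (SE 0.073, adjusted p = 0.259) and -0.057 with OLR1 siRNA. LAMC1, the gamma chain of most laminins, had a lower signal in every UVPAPC array (9.30 to 9.51) than in every untreated array (9.54 to 9.64). Its UVPAPC differences were -0.20 (SE 0.065, adjusted p = 0.0752) under scramble siRNA and -0.22 (SE 0.065, adjusted p = 0.0518) under OLR1 siRNA. Neither passed.

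LAMB2, a beta chain of nerve and kidney basement membranes, had -0.20 (SE 0.068, adjusted p = 0.0771) with OLR1 siRNA in untreated cells. LAMA5, the alpha chain of most epithelial basement membranes, ranged from -0.16 to -0.069 over the 4 comparisons. LAMA1 was at -0.18 (SE 0.066, adjusted p = 0.0949) with OLR1 siRNA in untreated cells and at 0.17 (SE 0.066, adjusted p = 0.146) with UVPAPC and OLR1 siRNA. LAMA2, LAMA4, LAMB4 and LAMC3 lay between -0.14 and 0.16. All 10 laminin chains had values below 0 in both comparisons of the siRNAs, with medians of -0.077 and -0.075. After rescaling 7 of 10 were below 0 in untreated and 8 of 10 in UVPAPC cells with centred arrays, and 8 of 10 and 9 of 10 with repeated quantile normalization or with cyclic loess.

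The response to UVPAPC was set against itself under the other siRNA, and the OLR1 siRNA effect against itself under the other treatment, since these pairs of comparisons share no arrays. For UVPAPC, Pearson's r over the 35 members was 0.67 (0.71 over all genes), and 25 members had the same sign in both, or 71.4%, beside 64.1% of all genes. For the OLR1 siRNA r was 0.86 (0.72 over all genes), and 29 members had the same sign, or 82.9%, beside 70.7% of all genes. Genes of one pair are read on the same arrays and are not independent. ITGA2, ITGA5, ITGA6 and ITGB6 were called in the same direction by both siRNA comparisons, which is 66.7% of the members called in untreated and 80% of those called in UVPAPC cells, beside 64.4% and 50% of all genes called. ITGB8 was the 1 member called in both UVPAPC responses, which is 33.3% of the members called with scramble and 100% of those called with OLR1 siRNA, beside 56.6% and 61.7% of all genes called.

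**Figure D3:**
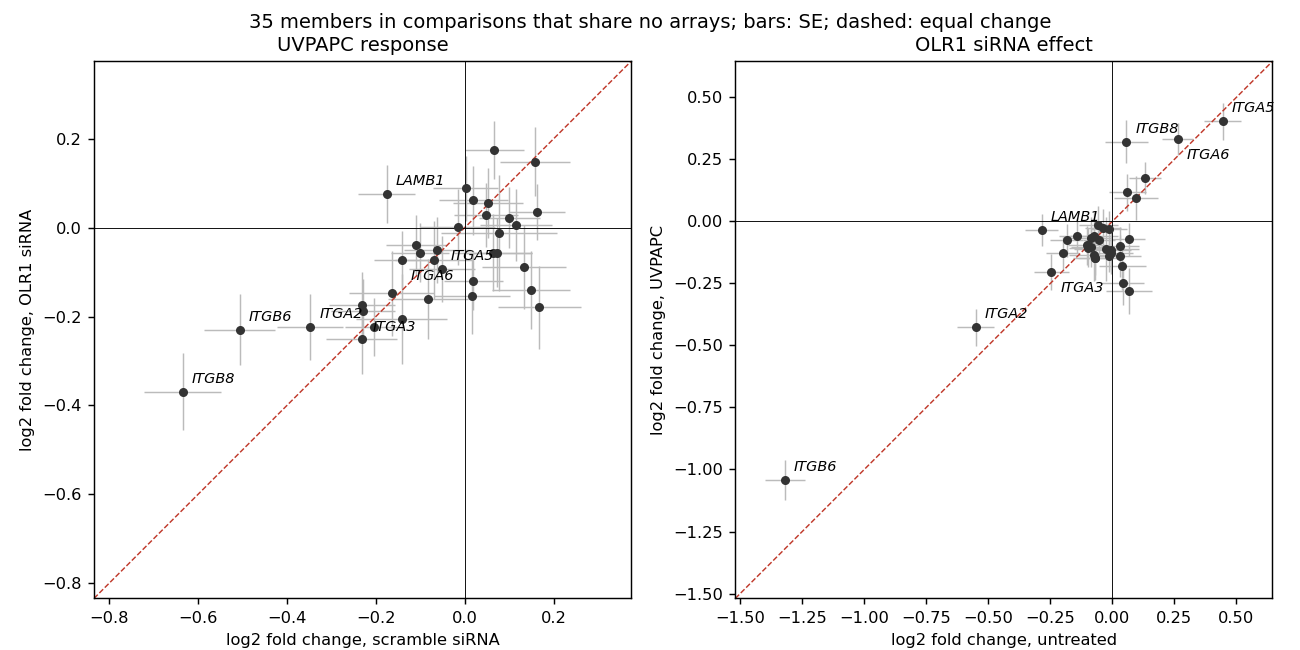
Log2 fold changes of the 35 members in pairs of comparisons that share no arrays: left, UVPAPC response with scramble (x axis) and OLR1 siRNA (y axis); right, OLR1 siRNA effect in untreated (x axis) and UVPAPC cells (y axis). Bars are standard errors and the dashed line marks equal change; ITGB6 (-1.32 and -1.04) stands far from the other members on the right.

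No gene passed in the test of the difference between the 2 UVPAPC responses. limma called 0 of 18417 genes and 0 of 35 members at an adjusted p under 0.05, 0% in each direction, and 1004 genes and 5 members had an unadjusted p under 0.05. The 5 members, named after their values were seen, were LAMB1 (0.25), ITGA11 (-0.35, unadjusted p = 0.0187), ITGB6 (0.28), ITGAM (-0.29) and ITGB8 (0.27), each with an adjusted p = 0.904. A value above 0 means that the log2 fold change with UVPAPC was higher, or less far below 0, with OLR1 than with scramble siRNA. The 0 was also the count under the other 20 alternatives that could be run for this comparison.

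Genes that work with integrins were read from 6 lists. Of the lists, chosen with earlier results of these data known, each is described by its counts. In the list of focal adhesion and integrin activation, whose proteins link integrins to actin, UVPAPC lowered 7 of 39 genes with scramble siRNA and 3 with OLR1 siRNA, and raised 0, beside 4.64% and 3.25% of all genes lowered. The other 32 and 36 did not pass. Of the 39 genes 30 had a mean signal above the median of all genes tested. Above that median 11.9% and 10.8% of all genes were called in either direction. TNS4, a tensin that binds integrin beta tails, fell by 0.65 and 0.59, the scaffold NEDD9 by 0.46 and 0.44, and the tensin TNS3 by 0.45 and 0.39. The median of the list was -0.079 and -0.061, beside -0.0020 and -0.013 over all genes. With OLR1 siRNA 2 rose and 3 fell in untreated cells, and 2 rose and 2 fell in UVPAPC cells. Of all genes 5.29% rose and 4.42% fell in untreated cells, and 7.94% and 4.56% in UVPAPC cells. TGFB1I1, the paxillin relative Hic-5, fell by 0.66 and 0.46, the focal adhesion protein zyxin (ZYX) by 0.28 and 0.29, and TES, a binding partner of zyxin, rose by 0.32 and 0.34. FERMT2, a kindlin that activates integrins, fell by 0.29 in untreated cells, KANK2, a talin-binding gene, rose there by 0.27, and the pseudokinase gene PEAK1 rose in UVPAPC cells by 0.42.

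Of 41 other integrin ligands UVPAPC lowered 6 and raised 1 with scramble siRNA, beside 4.64% and 2.67% of all genes. With OLR1 siRNA it lowered 3 and raised 0, beside 3.25% and 3.46% of all genes. NRP1, a semaphorin and VEGF co-receptor that also binds integrins, fell by 0.52 and 0.46, the matricellular CCN1 by 0.48 and 0.51 and the thrombospondin THBS1 by 0.46 and 0.36. The collagen VI chain COL6A2 was the 1 rise (0.24). The OLR1 siRNA lowered 4 in untreated and 4 in UVPAPC cells, beside 4.42% and 4.56% of all genes. It raised 0, beside 5.29% and 7.94%. THBS1 fell by 0.48 and 0.38, the adhesion molecule L1CAM by 0.36 and 0.31, the fibrillin FBN2 by 0.39 in untreated cells and TGFB1, whose latent form carries an RGD motif, by 0.34 in UVPAPC cells. ICAM1, a ligand of the ITGB2 receptors, fell by 0.38 in untreated cells.

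Of 25 basement membrane genes other than laminins 0 passed with UVPAPC and scramble siRNA and 1 rose with OLR1 siRNA, the nidogen NID2 (0.25). Of all genes 7.31% passed with scramble siRNA, and 3.46% rose with OLR1 siRNA. The OLR1 siRNA lowered 2 in untreated and 3 in UVPAPC cells, beside 4.42% and 4.56% of all genes. PXDN, a peroxidase that crosslinks collagen IV, fell by 0.46 and 0.48, NID1, which links laminin to collagen IV, by 0.23 in untreated cells, and the perlecan gene HSPG2 by 0.27 and the collagen IV chain COL4A5 by 0.25 in UVPAPC cells. Their list medians were -0.097 and -0.107, beside -0.0014 and -0.012 over all genes. Of 5 hemidesmosome partners PLEC, which links ITGB4 to keratin, fell with UVPAPC by 0.34 and 0.39, and 0 passed in the siRNA comparisons. Of all genes UVPAPC lowered 4.64% and 3.25%. Of 12 tetraspanins and lateral partners UVPAPC lowered 3 and raised 1 with scramble siRNA and lowered 2 and raised 1 with OLR1 siRNA. All 12 had a mean signal above the median of all genes tested. Above that median 11.9% and 10.8% of all genes were called in either direction. CD47, a partner of ITGAV receptors, fell by 0.39 and 0.27, the tetraspanin CD9 by 0.38 and 0.30, and the caveolin CAV1 by 0.29 with scramble siRNA, while SLC3A2, which binds ITGB1, rose by 0.40 and 0.57. With OLR1 siRNA 3 of the 12 rose in UVPAPC cells, CD47 by 0.33, CAV1 by 0.25 and the urokinase receptor PLAUR by 0.23, and 0 passed in untreated cells. Of all genes 7.94% rose in UVPAPC cells. Above the median signal 20.2% of all genes were called there in either direction, and 16.1% in untreated cells. Of 4 other laminin receptors measured 0 passed in any comparison.

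**Figure D4:**
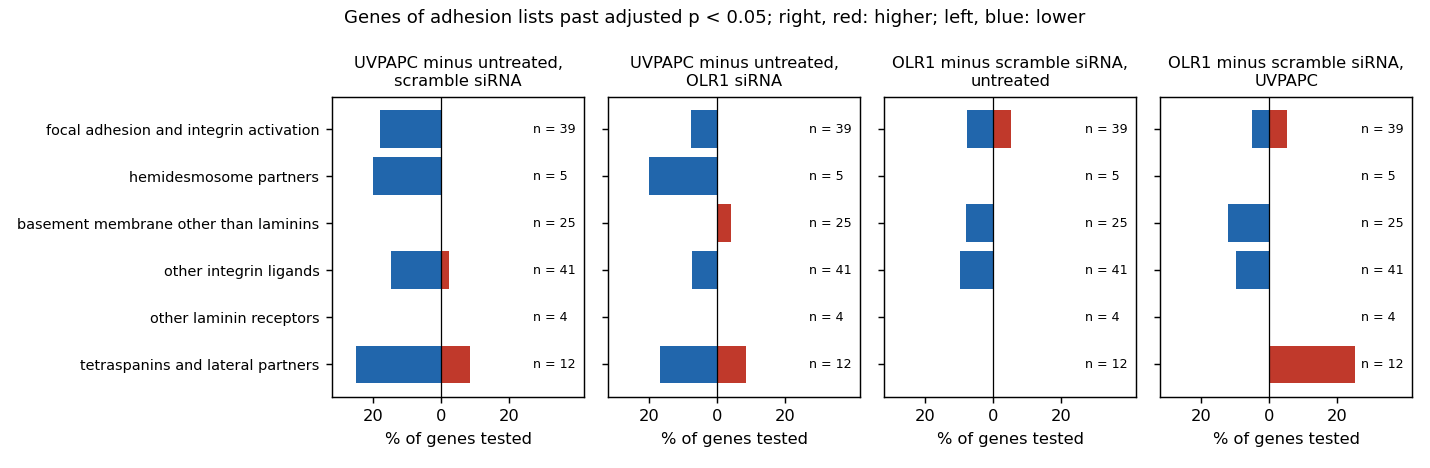
Percent of the tested genes of 6 adhesion lists (y axis, with the number tested) that rose (red, to the right) or fell (blue, to the left) at an adjusted p under 0.05 in 4 comparisons. With UVPAPC 7 of 39 focal adhesion genes fell with scramble siRNA and 3 with OLR1 siRNA, beside 4.64% and 3.25% of all genes. With OLR1 siRNA 3 of 12 tetraspanins and lateral partners rose in UVPAPC cells, beside 7.94% of all genes. In these lists 30 of the 39 and all of the 12 genes had a mean signal above the median of all genes. Above that median UVPAPC called 11.9% and 10.8% of all genes in either direction, and OLR1 siRNA in UVPAPC cells 20.2%.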

How the data were processed

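RNA of SZ95 sebocytes (100 ng, labelled with the WT PLUS kit per the labels' protocols) was measured on 12 arrays. Per the submitters' processing notes, the authors ran RMA in Expression Console 1.3.1.187 (Affymetrix), and the deposited log2 signal of each probe set was used as it stands. The sources used here do not give the RMA settings. Such summaries compress large changes, and the number of arrays limits the precision.

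Of 33297 entries 19460 carried 1 symbol, 1754 several and 12083 none in the platform annotation. Symbols were checked by Entrez number (19429 matched, 0 changed). Of several probe sets for a gene the one with the highest mean stood for it, which left 18417 genes.

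The 4 group means were fitted with limma 3.58.1 in R 4.3.3 (default eBayes, two-sided, 8 residual and 7.66 prior degrees of freedom). Benjamini-Hochberg adjustment covered all genes of a comparison. There were 5 comparisons: the UVPAPC response with scramble and with OLR1 siRNA, the OLR1 siRNA effect in untreated and in UVPAPC cells, and the difference between the UVPAPC responses. Named were members past the threshold with all 12 values, other members by value, and up to 3 rises and 3 falls per adhesion list and comparison; beyond this rule L1CAM was named in untreated cells, and LAMB3, LAMC1, ITGAV and ITGB4 were shown by array, chosen after their values were seen. The members, the 6 adhesion lists and the marker lists, from general knowledge, were chosen with earlier results of these data known. The fit was tested on simulated data.

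Alternatives, 21 in all, were eBayes with trend and robust settings, weights per array, genes above the median signal, averaged probe sets, centred arrays, repeated quantile normalization, the 6 arrays compared alone, the replicate number as a block, each array left out in turn, and cyclic loess, which was added after seeing the data. Promoter sequences were RefSeq's (GRCh38.p14), 24 of 35 members matching by symbol. Figures used matplotlib 3.10.9 in Python 3.11.15.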

Additional observations from a re-analysis of the deposited data

How the results depend on the processing

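Of the 15 member calls 10 were kept under each of the 21 alternatives, and none changed sign; the 5 that were lost under at least 1 are ITGB8 with UVPAPC and OLR1 siRNA, ITGA3, ITGA6 and LAMB1 with OLR1 siRNA in untreated cells, and ITGB8 with OLR1 siRNA in UVPAPC cells. The count of falling members with UVPAPC was 7 in place of 3 (scramble siRNA) and 5 in place of 1 (OLR1 siRNA) with trend and robust eBayes, and likewise 7 and 5 among genes above the median signal, where fewer genes were tested. With OLR1 siRNA it was also 3 with array weights, 5 when quantile normalization was repeated and 4 with cyclic loess. The added members were ITGA2, ITGA3, ITGAV, ITGB4, ITGB6 and LAMC1, each below 0, in one comparison or the other. In UVPAPC cells 4 in place of 2 members fell with OLR1 siRNA after cyclic loess, ITGA3 and ITGB5 being added. ITGA3 also fell there with trend and robust eBayes (adjusted p = 0.0223) and array weights (0.0402). It did so too among genes above the median signal (0.0300) and with repeated quantile normalization (0.0145). ITGB1 rose there with trend and robust eBayes (0.0369), among genes above the median signal (0.0406) and with centred arrays (0.0493). The cause was not tested.

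With each array left out in turn, UVPAPC called 868 to 1340 genes with scramble siRNA and 865 to 1397 with OLR1 siRNA, and the OLR1 siRNA 1101 to 2055 in untreated and 1267 to 2254 in UVPAPC cells. The falling members then numbered 3 to 4 and 0 to 3 with UVPAPC, and 2 to 4 in both siRNA comparisons, where 1 to 2 and 2 to 3 rose. With centred arrays 67.2% of calls in untreated and 79.9% in UVPAPC cells were higher with OLR1 siRNA, against 54.5% and 63.5% as deposited.

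The same replicate numbers deviated together (r above 0.1) in 6 of 18 pairs of arrays, and an array matched its own number best in 13 of 36 cases, so the numbers were not taken as pairs. The replicate block gave 1309, 1220, 1756 and 2309 genes in the 4 comparisons and 0 in the difference of responses; among members it ended the call of ITGA3 in untreated cells (adjusted p = 0.0506) and no other.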
